A study of Mus musculus with 2 samples.

Results

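The small (40S) subunit of the cytosolic ribosome is built from 1 ribosomal RNA and a fixed set of proteins, and it is the subunit that binds initiation factors, scans the mRNA and reads codons. The mRNAs for these proteins are among the most abundant in growing cells and carry a 5′ terminal oligopyrimidine (TOP) tract, an unbroken run of C and T at the transcript start through which growth signals set how much of the mRNA is on ribosomes. In many cell types a large share of such mRNAs rests outside polysomes, and cell stress moves more of it there.

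These mRNAs were followed in NIH3T3 cells, an established mouse fibroblast line, either untreated (control) or given 10 µM thapsigargin for 3 h. Thapsigargin blocks the calcium pump of the endoplasmic reticulum, sets off the unfolded protein response and lowers translation initiation through phosphorylation of eIF2α. Both groups were grown as subconfluent plates in medium with 10% bovine serum, and each group was 1 two-colour array that held RNA pooled from 3 preparations. On each array Cy3 marked polysomal RNA (P) and Cy5 marked free plus monosomal RNA (FM), so log2 P/FM, the translation efficiency, was above 0 where the polysome signal was the brighter one. With 1 array in a group and no dye swap, no difference between the conditions could be tested. The values are averages over whole cultures, so fewer cells of a type and less RNA per cell cannot be told apart.

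Members were the coding accessions whose gene name on the array was Rps with a number and at most 1 further letter, Rpsa or Fau, and these were 32 mRNAs with 43 probes among 18754 coding mRNAs. The probes of Rps27a and Rps4x carried an outlier flag, which left 30 members, and all 30 were above the minimum mean log2 signal (A) of 4.5 on both arrays. The fibroblast label was checked on 8 marker genes, of which 7 were well above background in both channels of both arrays, while 1 of 6 markers of blood, epithelial and endothelial cells was. Hspa5, Ddit3 and Atf4, genes of the stress response, had A values higher by 1.96, 3.71 and 0.79 after thapsigargin.

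To show the tract that gives this class its name, 30-base windows were taken for a few members from RefSeq (mouse build GRCm38.p6). Each is placed around the longest run of C and T found from 20 bases before to 50 bases after the annotated start, so not every window holds the start itself. They are written 5′ to 3′ on the strand of the gene, with that run in capitals. The first group holds members with a long run close to the start, the second holds very poorly polysomal members whose longest run lay further in, and the third holds members without a long run. The groups serve for display only. Rps27, in the first group, and Rps28, in the third, were very poorly polysomal too. Rps15, not shown, had its longest run at base 26 and a control log2 P/FM of -2.18.
Fau: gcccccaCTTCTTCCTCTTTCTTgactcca
Rps6: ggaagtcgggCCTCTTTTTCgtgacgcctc
Rps10: cgcgcacgCCCCTTCCTTTCCagcctccgc
Rps18: tcacttccgCTCTCTCTTCCacaggaggcc
Rps27: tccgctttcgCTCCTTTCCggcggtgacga
Rps9: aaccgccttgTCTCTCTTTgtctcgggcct
Rps12: caccgccggCCTTTTCCCCTgccgccgccg
Rps7: tgtccccaCCTCTTTTCTTCCgccacccgg
Rps23: tgggtccttcctgcaCCTCCTCTCTCTTTC
Rps28: ctgtcccgaggatTCCTgggtaccgcgtgc
Rps16: ccgtaaagcccgCTTCTgtcgtgacgtagc

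The window of Fau is chr19:6057937-6057966 on the plus strand, that of Rps6 is chr4:86857349-86857378 on the minus strand, and that of Rps12 is chr10:23787181-23787210 on the minus strand. In Fau the run was 16 bases and began 3 bases before the annotated start, whereas in Rps12 it was 11 bases and began at base 9 of the transcript. Annotated starts are not always the site of the cap, so a run some bases to either side of it may or may not be terminal. Promoter entries matched 25 of the 32 members, and Rps14, Rps20, Rps27a and Rps29 were among the 7 without one. From 20 bases before to 50 bases after the start, 18 of 25 members (72%) held a C and T run of 8 or more bases, against 28.5% of 17492 protein-coding genes of the same table. The median longest run was 10 bases in the members and 6 bases over those genes. A run of 8 or more A and G bases, the same feature on the other strand, was found in 0 of 25 members and in 30.8% of the genes. Across 24 members with both values, run length and control log2 P/FM had a Pearson r of -0.14 and a Spearman rho of -0.24 (a description, since the members share both arrays). A run of 8 or more C and T bases was present in 6 of 7 members at or below -3 that had an entry and in 12 of 18 others. These others include Rps4x, which had no such run and no usable spot, so its place among them is not known.

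In control cells every measured small subunit mRNA was brighter in the FM than in the P channel. All 30 members had a log2 P/FM below 0, against 37.7% of 10297 coding mRNAs measured on the control array, and their median was -2.21, an FM signal 4.64 times the P signal. The median of the 10033 coding mRNAs measured on both arrays was 0.34 in control cells. At or below -1.5, a translation efficiency the study classed as low, lay 26 of 30 members and 4.96% of coding mRNAs. Among the 819 mRNAs with A above 11 on both arrays the share at or below -1.5 was 10.6%, with 24 of 27 members there. The members spanned percentiles 0.0194 to 12.3 of all coding mRNAs on the control array.

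**Figure D1:**
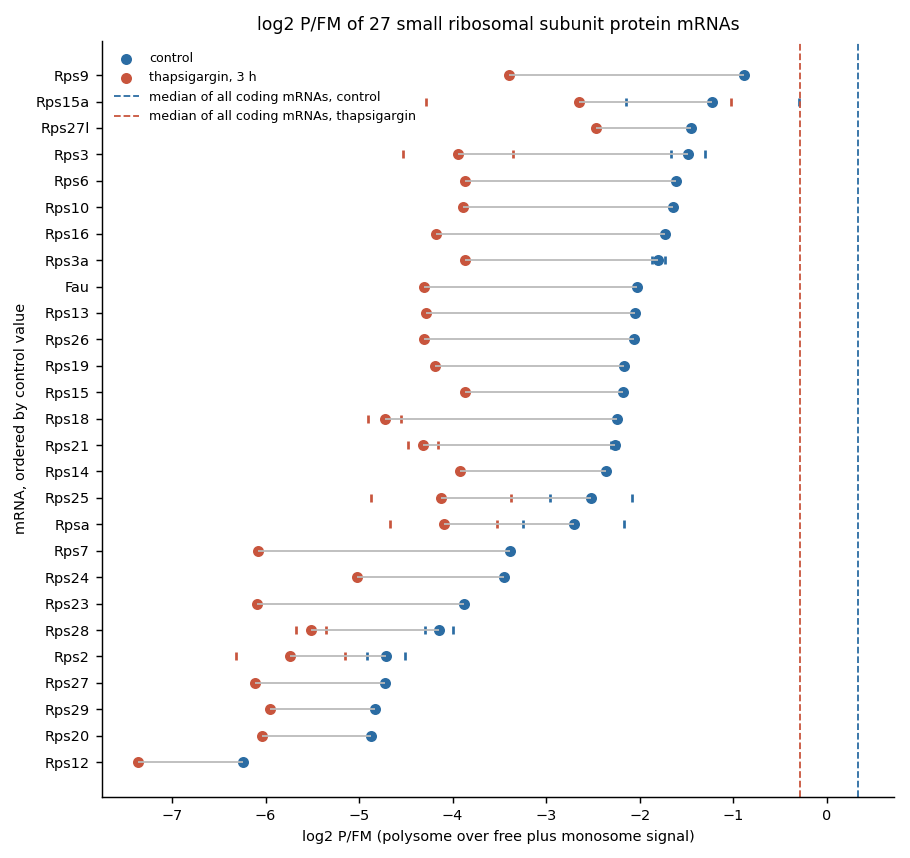
log2 P/FM of 27 of the 30 measured small subunit mRNAs (x axis) in control cells (blue) and after 3 h of thapsigargin (red), 1 array each, ordered by the control value; ticks are single probes of members with several probes and dashed lines are the medians of all coding mRNAs. Control values run from -6.24 (Rps12) to -0.89 (Rps9) and every thapsigargin value lies to the left of its control value on these unscaled signals; scaled to spike-in probes, 28 of the 30 measured members lie to the right.

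The control values fell into a main range and a lower one. In the lower range were 9 members at or below -3, namely Rps12, Rps20, Rps29, Rps27, Rps2, Rps28, Rps23, Rps24 and Rps7, whose median was -4.71. The other 21 members ran from -2.71 to -0.89 with a median of -2.04. A distance of 0.67 separated Rps7 at -3.38 from Rpsa at -2.71, and Rps25 followed at -2.52. Rpsa and Rps25 are averages of a bright and a dim probe, and their bright probes alone were at -3.25 and -2.96. The distance and the counts in each range thus depend on those dim probes. At or below -3 lay 0.641% of coding mRNAs on the control array. The lower range was described after the values were seen and has no test. It held 4 proteins of the head of the subunit and 5 of its body and platform, while the upper range held 9 and 11 of these and Rps27l.

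Rps12, a protein of the head, had the lowest translation efficiency of the class. Its P signal was 5852 in control cells and 2660 after thapsigargin, and its FM signal was 443674 and 437096, so log2 P/FM was -6.24 and -7.36. Its FM spots reached 69.0% and 68.3% of the scanner's saturation value, and no spot on either array was flagged as saturated. The difference in Rps12 between conditions lay in the polysome channel, which was 2.20 times dimmer, with the FM signal at 0.985 of its control value.

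Rps20 and Rps29, both small proteins of the head, and Rps27, a zinc-binding protein of the platform, came next. For Rps20 the P signal was 11772 in control and 5797 in treated cells and the FM signal was 344764 and 381234, which gave log2 P/FM of -4.87 and -6.04. For Rps29 the P signal was 10694 and 5780 and the FM signal was 303951 and 358572, with log2 P/FM of -4.83 and -5.95. For Rps27 the P signal was 7508 and 3272 and the FM signal was 198389 and 227090, with log2 P/FM of -4.72 and -6.12. In all 3 mRNAs the P signal was lower and the FM signal somewhat higher in treated cells. The array design places the Rps29 probe on chromosome 2 (mm9), whereas the gene table has Rps29 on another chromosome, and whether this probe reads a near-identical copy of the gene was not tested.

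Rps2, which lines the mRNA entry channel near the decoding site, and Rps28, a head protein beside the mRNA exit, were each read by 2 probes. Rps23, a protein of the decoding centre, was read by 1 probe. The probes of these low members are shown with those of Rps6 and Rps9, members of the upper range, because the contrast between the ranges rests on such single 60-base oligonucleotides. They are written in lower case, 5′ to 3′, as the array design gives them, and each has at least 1 reading frame without a stop codon.
Rps2: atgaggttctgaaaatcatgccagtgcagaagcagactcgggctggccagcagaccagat
Rps28: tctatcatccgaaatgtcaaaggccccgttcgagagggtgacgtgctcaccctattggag
Rps23: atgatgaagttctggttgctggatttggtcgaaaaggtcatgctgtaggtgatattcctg
Rps6: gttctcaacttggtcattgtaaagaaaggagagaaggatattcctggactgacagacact
Rps9: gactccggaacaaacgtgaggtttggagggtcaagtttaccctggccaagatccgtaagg

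In mm9, the build of the array design, these probes lie at chr17:24857612-24857671 (Rps2, plus strand), chr17:33960183-33960242 (Rps28, minus strand), chr13:91064146-91064205 (Rps23, plus strand), chr4:86501886-86502077 (Rps6, minus strand) and chr7:3656257-3656316 (Rps9, plus strand). The Rps6 probe covers 192 bases of genome with 60 bases of sequence and so crosses an exon junction, and 12 of the 43 member probes do so. Ribosomal protein genes have many processed copies in the mouse genome, and hybridization to or from such copies was not tested. The GC content of the member probes ran from 30% to 55%, and across 40 probes well above background it had a Pearson r of 0.06 with control log2 P/FM.

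The printed Rps2 probe had P signals of 10819 and 4961 and FM signals of 245745 and 176925 in control and treated cells, and the other Rps2 probe had P signals of 10626 and 4201 and FM signals of 320347 and 335271. Their log2 P/FM values were -4.51 and -4.91 in control cells and -5.16 and -6.32 in treated cells. Both probes put Rps2 in the lower range, but they differed in the size of the change, -0.65 and -1.40. The 2 probes of Rps28 lay closer together. The printed one had P signals of 22554 and 9797 and FM signals of 360386 and 401709, and the other had P signals of 18664 and 8476 and FM signals of 367120 and 432265. Rps28 thus changed by -1.36 on one probe and -1.37 on the other, a spread of 0.01 (SD, n = 2 probes).

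Rps23 had P signals of 25825 and 6036 and FM signals of 380241 and 411675, with log2 P/FM of -3.88 in control and -6.09 in treated cells. Rps24, one of the proteins altered in Diamond-Blackfan anaemia, went from -3.45 to -5.03. Rps7, a binding partner of Mdm2 that is altered in the same disease, had P signals of 20398 and 3920 and FM signals of 212612 and 266050. Its log2 P/FM was -3.38 and -6.08, a change of -2.70 and the largest among the 30 members. Rps7 and Rps23 were the only ones of the 9 low members to change by -2 or lower.

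At the other end, Rps9, a protein at the mRNA entry channel, had the highest translation efficiency of the class. Its P signal was 27749 in control cells and 7846 after thapsigargin and its FM signal was 51287 and 82540, so log2 P/FM was -0.89 and -3.40. Its change was -2.51, and Rps9 went from percentile 12.3 to percentile 0.882 of all coding mRNAs. Rps3, which sits at the entry side of the head and also acts in DNA repair, followed in this order after Rps15a and Rps27l. One probe of Rps3 had P signals of 26077 and 9043 and FM signals of 82756 and 209384, and the other had P signals of 11452 and 3600 and FM signals of 28309 and 36908. Rps3 averaged -1.49 in control and -3.95 in treated cells, and its change was -2.87 on one probe and -2.05 on the other.

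Rps6, the subunit protein that S6 kinases phosphorylate when growth signals are high, had P signals of 8282 and 2186 and FM signals of 25397 and 31834. Fau, which is made as a fusion of a ubiquitin-like protein with ribosomal protein S30, had P signals of 44057 and 13519 and FM signals of 179360 and 268351. Fau went from -2.03 to -4.31 and Rps6 from -1.62 to -3.86, with changes of -2.29 and -2.25. Fau was near the middle of the upper range on both arrays, and Rps6 was among its highest members. Rps27a, made as a fusion with ubiquitin itself, was measured by a flagged spot alone. With flagged spots kept its P signal was 22919 and 10628, its FM signal was 71196 and 244926, and its log2 P/FM was -1.64 and -4.53. Rps4x, whose only spot was flagged too, had -2.10 and -4.23. Both of these flagged values lay in the range of the other upper members in control cells, and the change of Rps27a, -2.89, was beyond that of Rps7.

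Rps18 was read by 2 probes, with P signals of 26276 and 4464 and FM signals of 126314 and 104678 on one and P signals of 35235 and 7872 and FM signals of 164761 and 235660 on the other. Their log2 P/FM values were -2.27 and -2.23 in control cells and -4.55 and -4.90 in treated cells. Rps3a, at the platform, had P signals of 10488 and 3246 with FM signals of 34878 and 47992 on one probe, and P signals of 27965 and 7982 with FM signals of 101867 and 115596 on the other. The probes of Rps3a gave changes of -2.15 and -1.99. Rps21 had P signals of 19436 and 8184 with FM signals of 96156 and 182254 on one probe, and P signals of 8223 and 3054 with FM signals of 38506 and 54521 on the other. Its changes were -2.17 and -1.93.

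The remaining members with 1 bright probe were alike in direction. In control cells Rps16, which reaches into the site of the initiator tRNA, stood at -1.73, Rps26, at the mRNA exit, at -2.06, Rps13 at -2.05, Rps15 at -2.18, Rps19, the most often altered protein in Diamond-Blackfan anaemia, at -2.17, and Rps14, whose loss underlies a form of myelodysplasia, at -2.36. After thapsigargin they were at -4.18, -4.31, -4.29, -3.87, -4.19 and -3.92 in the same order. Rps14 and Rps15 moved least of these, by -1.56 and -1.69.

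In 3 members a second probe was far dimmer than the first, which bears on their averages. Rps15a, which binds ribosomal RNA early in assembly, had a probe with P signals of 12062 and 3610 and FM signals of 53576 and 70425, and a second probe 10034 bases away in mm9 that was not well above background in either channel. The second probe had P signals of 13.8 and 8.19 and FM signals of 17.0 and 16.6. The bright probe gave -2.15 and -4.29, in the middle of the class, whereas the average of both, -1.23 and -2.65, did not. Its 2 probes differed by 1.00 (SD, n = 2 probes) in the change, the widest spread of any member with several probes. Rps25, a protein that viral internal ribosome entry sites need, had P signals of 14250 and 4913 and FM signals of 111092 and 144493 on one probe and P signals of 44.3 and 24.3 and FM signals of 187.8 and 251.8 on the other. Rpsa, also known as the laminin receptor precursor, had P signals of 6011 and 1973 and FM signals of 57237 and 50096 on one and P signals of 75.5 and 34.3 and FM signals of 338.4 and 394.8 on the other. On the bright probe alone Rps25 was at -2.96 and Rpsa at -3.25 in control cells, which narrows the space between the ranges, and Rpsa would then join the members at or below -3.

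Rps27l stood apart from the other measured members, most plainly in the P channel. This paralog of Rps27 is a target of p53 and can take the place of Rps27 in the subunit. Its P signal was 6476 in control cells and 7957 after thapsigargin and its FM signal was 17677 and 43847, so both fractions were brighter in treated cells. Rps27l was the only one of the 30 measured members whose P signal did not drop, and the only one with a higher A, by 0.80. The flagged spot of Rps27a, not among the 30, also had a higher A, by 0.34. Its log2 FM signal was higher by 1.78, and that of 1 Rps3 probe by 1.34, against 1.31 for Rps27l. Because the FM signal was 2.48 times its control value and the P signal was 1.23 times, log2 P/FM still went from -1.45 to -2.46. Its change of -1.01 was the smallest in size of the class, and in treated cells Rps27l had the highest log2 P/FM of the 30 members, at percentile 2.62 of all coding mRNAs. With Agilent's processed signals and with loess its change was 0.65 and 0.90, so its direction is not settled.

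**Figure D2:**
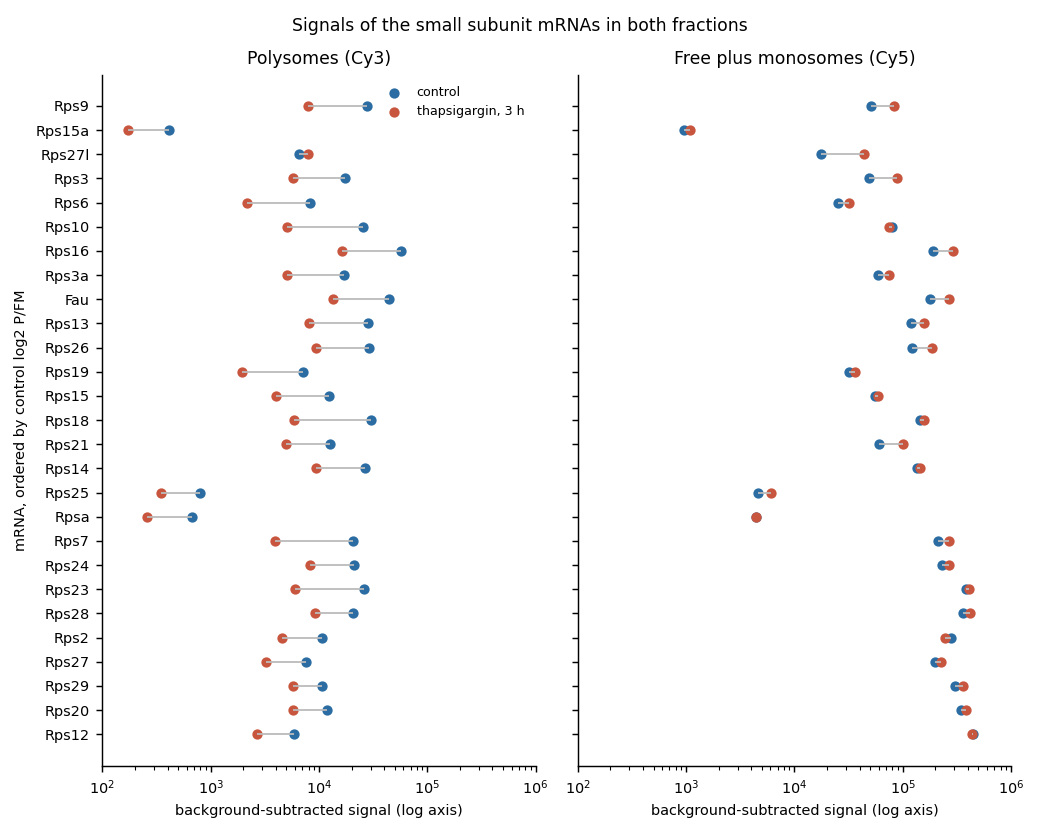
Background-subtracted signal (log axis) of 27 of the 30 measured small subunit mRNAs in the P channel (left) and the FM channel (right), control in blue and thapsigargin in red, in the order of the control log2 P/FM; members with several probes are shown at the geometric mean. The P signal is lower in treated cells for 26 of the 27, Rps27l being the exception, and the FM signal is higher for 24 of the 27, so the channels do not move alike.

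The comparison of thapsigargin with control cells asks how the stress moved these mRNAs between the fractions. On unscaled signals all 30 members had a log2 P/FM lower by 0.8 or more, the size the study used for a sensitive mRNA, against 47% of 10033 coding mRNAs, but scaling to spike-in probes turned 28 of 30 changes positive. The median change was -2.06, from -2.21 to -4.31, while the median over all coding mRNAs was -0.71. Spread between probes of 1 mRNA had a median SD of 0.32 in the change over 3438 mRNAs and of 0.17 over 9 members whose probes passed the A minimum, which leaves out Rps15a, and spots of 1 probe differed by 0.10, which covers array error and no difference between cultures. At or below -2 were 17 of 30 changes, against 13.7% of coding mRNAs. After thapsigargin 28 of 30 members were at or below -3, with Rps27l and Rps15a above it, and 1.27% of coding mRNAs on that array were that low. Rps15a is above -3 only as the average with its dim probe, since its bright probe was at -4.29. Scaled to spike-in probes, the median of the members in treated cells was -1.36 instead of -4.31.

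Bright mRNAs as a whole were lower too. Of the 819 coding mRNAs with A above 11 on both arrays, 83.6% changed by -0.8 or lower and 44.4% by -2 or lower, against 27 of 27 and 17 of 27 members in that range. Their median change was -1.83 and that of the 27 members was -2.18, so the size of the change in the members was close to that of other bright mRNAs, and 17 of 27 members lay below the median of the bright mRNAs. With loess, which removes a trend of log2 P/FM with brightness within each array, the median change of the members was -0.18, that of all coding mRNAs was -0.15, and 0 of 30 members passed -0.8. In the level, by contrast, the bright mRNAs had a control median of 0.92 and the members -2.21, and with loess the members were at -2.96 in control cells.

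On the log2 scale the P signal of the members moved more than the FM signal. The P signal was lower by 1 or more on the log2 scale in 28 of 30 members, with a median change of -1.62, against 12.8% of coding mRNAs and a median of 0.02 over them. The FM signal was higher in 27 of 30 members, against 86.6% of coding mRNAs, and higher by 1 or more in 1 of 30, Rps27l, against 32.4%. The median FM change was 0.22 in the members and 0.72 over all coding mRNAs. In control cells the FM signal of the members was already a median of 4.64 times the P signal. With such unlike starting signals, the log2 changes of both channels cannot be compared directly, and the FM counts are not read as a separate kind of response. Whether RNA passed from polysomes to FM was not tested. The FM signals of Rps2, Rps10 and Rps12 were lower in treated cells, by 0.20, 0.09 and 0.02. Channel changes are those of each array's own signals. The RNA of the fractions was labelled in the proportion in which the cells held it. By the paper's account, polysomes held more RNA than FM in control cells, and FM held more than polysomes after stress. With total RNA kept at 300 ng, less P RNA and more FM RNA were thus labelled for the treated array. The changes in P, FM and log2 P/FM carry this difference in loading. Its share in the members' changes and in the spike-in difference was not tested.

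**Figure D3:**
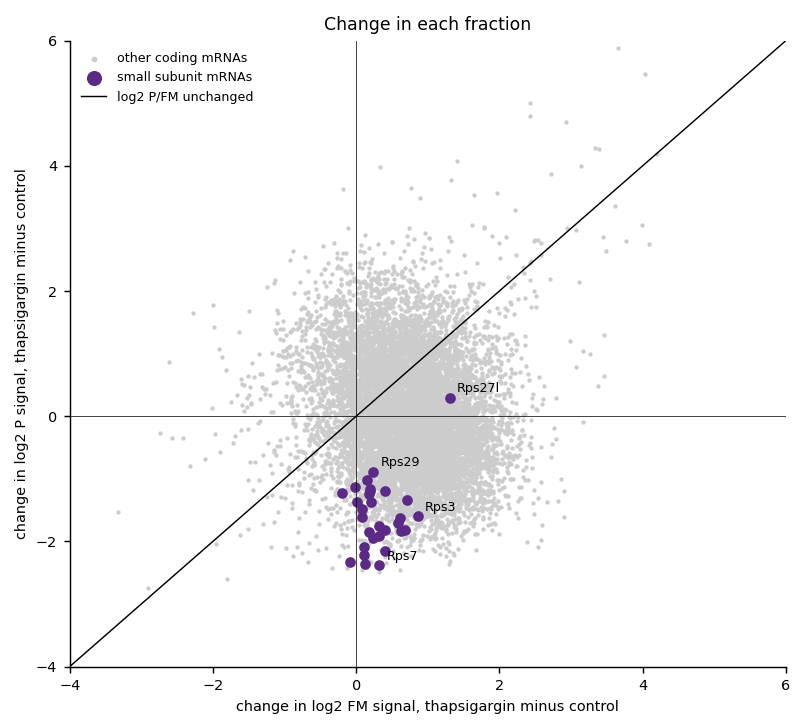
Change in log2 P signal (y axis) against change in log2 FM signal (x axis), thapsigargin minus control, for 30 small subunit mRNAs (purple) and the other coding mRNAs (grey); on the diagonal log2 P/FM is the same in both conditions. The members lie below the diagonal with P changes from -2.38 to 0.30 and FM changes from -0.20 to 1.31 on unscaled signals; scaling to spike-in probes would lift 28 of 30 above it.

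The abundance measure A, the mean of both log2 signals, was lower in treated cells for 29 of 30 members and for 23.2% of coding mRNAs. A is not the summed signal, and where FM far exceeds P it can fall with P although FM rises. In Rps20, for example, A was lower by 0.44 while P went from 11772 to 5797 and FM from 344764 to 381234. A changed by 1 or more in 4 of 30 members against 12.3% of coding mRNAs, and in all 4 it was lower. Rps10, at the beak of the head, had P signals of 25355 and 5031 and FM signals of 79286 and 74473, and its A was lower by 1.21. Rps18 and Rps7 were also among the 4, lower by 1.12 and 1.03. With processed signals 17 members passed this limit. In these 3 mRNAs the P signal was the one that moved more, by -2.33, -2.36 and -2.38 for Rps10, Rps18 and Rps7, while their FM signals moved by -0.09 to 0.32.

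The order of the members was largely kept. Across the 30 members, which share both arrays, control and thapsigargin log2 P/FM had a Pearson r of 0.92 and a Spearman rho of 0.83, and the same 9 members were lowest on both arrays. Among the 21 members of the upper range r was 0.65. The lower range stayed below the upper one, at -7.36 to -5.03 against -4.73 to -2.46, and the distance between their medians was smaller in treated cells (-6.04 and -4.13) than in control cells (-4.71 and -2.04). Changes of -2 or lower occurred in 2 of 9 members of the lower range and 15 of 21 of the upper, and since the ranges were drawn on the control values that enter the change, this is a description only. The 9 members were also the lowest 9 without background subtraction, with normexp and with loess, but with processed signals 7 of them were.

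By position in the subunit the medians were close. The 13 measured head proteins had a control median of -2.18 and a median change of -2.02, and the 16 of the body and platform had -2.30 and -2.13. Both groups spanned the ranges, from -6.24 to -1.49 in the head and from -4.72 to -0.89 in the body and platform. Rack1 (Gnb2l1 on the array), a scaffold protein of the head that is not named as an Rps, was at -2.61 in control and -4.43 in treated cells.

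Of 6 gene lists set side by side, the small subunit had the lowest control median. The large subunit list, with 50 measured mRNAs, had a control median of -1.67 with 29 of 50 at or below -1.5 and 7 of 50 at or below -3, and a median change of -2.04. The 31 mRNAs of the mitochondrial small subunit, the ribosome of another compartment, had a control median of 1.20 with 0 at or below -1.5, but a median change of -2.15, as large as that of the cytosolic members. In them the FM signal was higher by a median of 1.22 and the P signal lower by 0.76. In the cytosolic members the median changes in FM and P were 0.22 and -1.62. The cytosolic members began with most of their signal in FM (control median -2.21), so the lists cannot be compared channel by channel. Factors of 40S assembly (41 mRNAs) were at 0.74 in control cells with a median change of -0.47, and 17 of 41 changed by -0.8 or lower. The 20 factors of the 43S preinitiation complex, which is built on the small subunit, were at 0.18 with a median change of -1.42 and 17 of 20 at or below -0.8. The 15 TOP mRNAs from outside the ribosome had a control median of -1.58, with 3 at or below -3, a median change of -1.21 and 12 of 15 at or below -0.8.

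**Figure D4:**
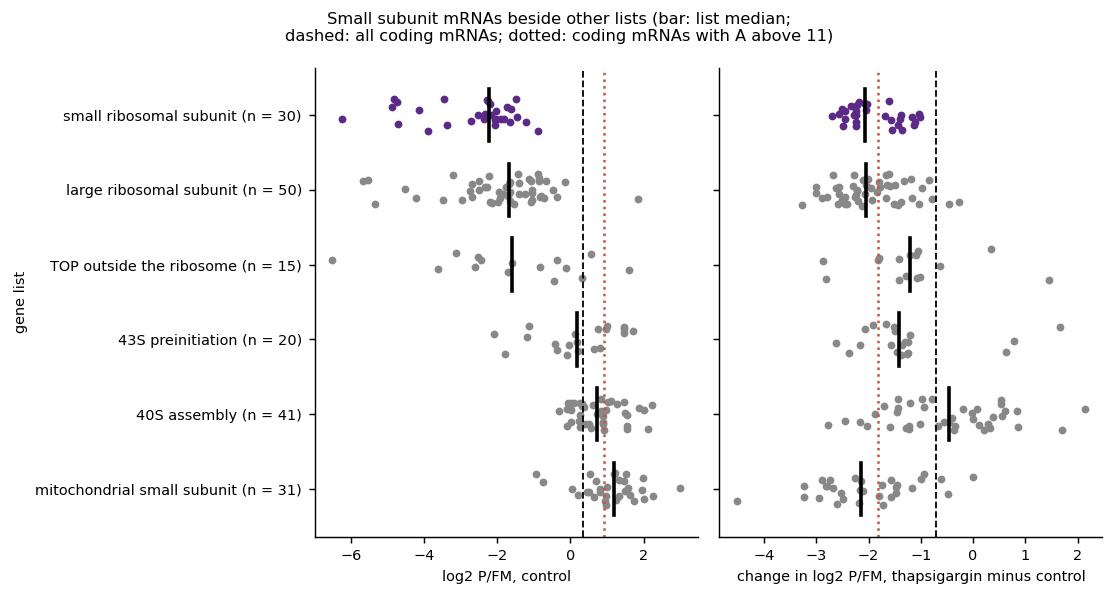
log2 P/FM in control cells (left) and its change with thapsigargin (right) for the small subunit mRNAs (purple) and 5 other gene lists (grey), each point 1 mRNA and each bar the list's median; dashed lines are the medians of all coding mRNAs (0.34 and -0.71) and dotted lines those of coding mRNAs with A above 11 (0.92 and -1.83). The small subunit list has the lowest control median, -2.21, while its median change, -2.06 on unscaled signals and 0.49 if scaled to spike-in probes, lies beside those of the large subunit and of the mitochondrial small subunit.

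The direction of the change rests on how the arrays are scaled. The 10 spike-in probes stood at a median of -0.40 on the control array and -2.95 on the other, a difference of -2.55, and taken as the reference they turn the median change of the members to 0.49. All coding mRNAs then move to 1.84. Scaling to spike-in probes and centring each array on its median, which gave a median change of -1.47, move all mRNAs alike and so leave the place of the members among them as it was, with 30 of 30 below the median change of all coding mRNAs. That count was 29 of 30 with processed signals, with a median change of -1.40, but 16 of 30 with loess. With a minimum A of 7 it was 28 of 30, and with a minimum of 11 it was 17 of 27.

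**Figure D5:**
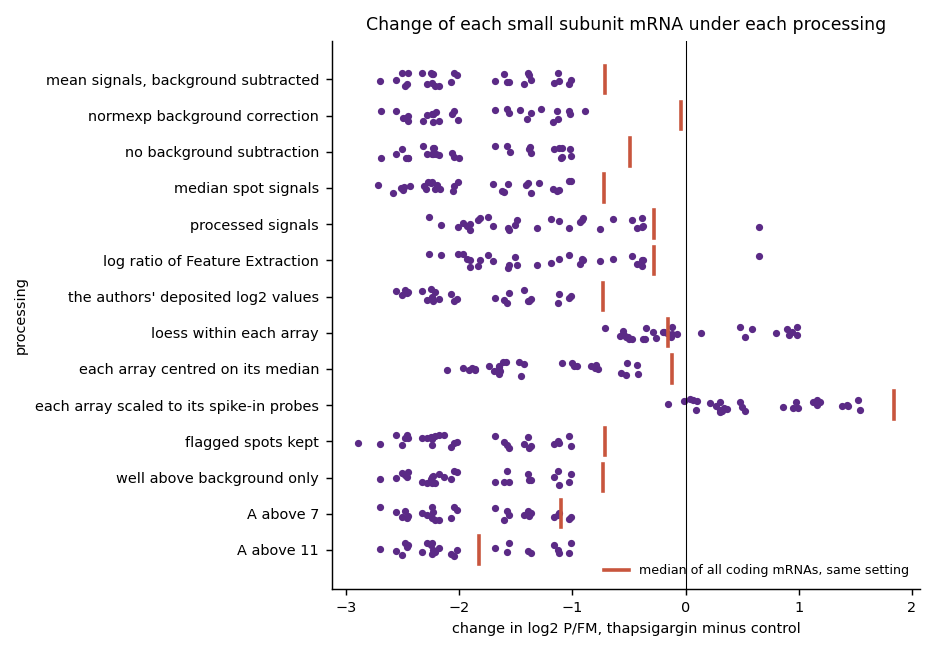
Change in log2 P/FM of each small subunit mRNA (purple points, x axis) under each processing (y axis), with the median change of all coding mRNAs under the same processing as a red bar. The points lie left of 0 for all settings apart from spike-in scaling, where 28 of 30 are positive, loess, where 10 are, and processed signals and the log ratio, where Rps27l is, and they lie left of the red bar except for loess, high A minimums and Rps27l.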

How the data were processed

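RNA was hybridized to Agilent mouse 44K arrays (mm9), and spot intensity per channel was deposited as read by the authors with Agilent Feature Extraction 10.7.1, which also gave the deposited log10 ratio of red over green. The authors' deposited table of log2 P/FM holds means over spots after background subtraction with a floor of 0.5, and 99.99% of its control values equalled such means within 0.001. Here the local background median was subtracted from the mean spot intensity (values under 0.5 set to 0.5), log2 Cy3/Cy5 was taken with no normalization as in the methods, flagged outlier spots were left out, and spots were averaged per probe and probes per accession. A had to exceed 4.5. The steps were tested on simulated data. Analyses used Python 3.11.15, pandas 2.3.3 and, for normexp (offset 50) and loess, limma 3.58.1 in R 4.3.3. No test was possible with 1 array per group. The number of arrays limits precision. On each array 42.5% to 46.3% of 43379 spots per channel were well above background. Members, lists and limits were chosen with earlier results of these data known. Values of 3 members are not reported by name here, though medians and counts hold them. The other members were named, and both channels were given for the 5 lowest and 5 highest control values, the 5 largest and 5 smallest changes, the 3 largest changes in A, members with several or dim probes, and Rps6, Rpsa, Fau, Rps27a and Rps27l. Alternatives were other background corrections, signals, scalings, flags, A minimums of 7 and 11, and single probes.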

Additional observations from a re-analysis of the deposited data

How the results depend on the processing

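Subtraction method (normexp, none), median spot signals, the authors' deposited log2 values, kept flagged spots, spots well above background only, A above 7 or 11 and single probes left the medians within the spread between probes and the counts within 1.5 times. With processed signals and with the log ratio of Feature Extraction the medians were -1.64 in control and -2.80 in treated cells, the median change was -1.40, 16 members were at or below -1.5 in control cells, the change of Rps27l was 0.65, and with processed signals 17 changed in A by 1 or more. With loess the medians were -2.96 and -3.17, the median change was -0.18 and 0 members changed by -0.8 or lower, and the changes of Rps15, Rps14, Rps24, Rps27, Rps28, Rps27l, Rps12, Rps20, Rps29 and Rps2 became 0.14, 0.48, 0.52, 0.58, 0.80, 0.90, 0.91, 0.94, 0.98 and 0.99. Centred on each array's median, the medians were -2.53 and -4.03 and the median change -1.47. Scaled to the spike-in probes, the medians were -1.81 and -1.36, the median change was 0.49, 12 members were at or below -1.5 in treated cells and 0 changed by -0.8 or lower. The changes were then 0.041 for Rps9, 0.068 for Rps18, 0.090 for Rps3, 0.10 for Rps16, 0.26 for Fau, 0.30 for Rps6, 0.31 for Rps10, 0.31 for Rps26, 0.32 for Rps13, 0.34 for Rps23, 0.48 for Rps3a, 0.50 for Rps21, 0.53 for Rps19, 0.86 for Rps15, 0.95 for Rps25, 0.97 for Rps24, 0.99 for Rps14, 1.12 for Rps15a, 1.16 for Rps27, 1.16 for Rpsa, 1.18 for Rps28, 1.38 for Rps20, 1.42 for Rps29, 1.43 for Rps12, 1.52 for Rps2 and 1.54 for Rps27l, and Rps7 stayed negative. The median change of all coding mRNAs, -0.71, itself moved to -0.04 with normexp, -0.49 without subtraction, -0.28 with processed signals, -0.15 with loess, -0.12 with centring and 1.84 with spike-in scaling. Which scaling is right was not tested here, and the paper's own account is of less protein synthesis and fewer heavy polysomes under thapsigargin. No paired analysis was possible because each condition was 1 array of pooled RNA. Rps7 and Rps20 have no value in the deposited table used here.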

Other observations

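A further 12 probes carry names of small subunit genes but no coding accession, and 4 of them were well above background in both channels of both arrays. Of these 12 probes, which belong to cDNA clones, 7 had a higher and 5 a lower log2 P/FM after thapsigargin, and of the 7 that were higher 1, of Rps20, was well above background, with -2.51 and -1.76. A clone probe of Rps21 was brighter, with FM signals of 8237 and 22446, and went from -2.11 to -3.92, and one of Rps4x went from -0.50 to -2.61.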
